A study of Mus musculus with 2 samples.

Results

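Zinc finger protein genes named Zfp with a number below 500 were examined for N6-methyladenosine (m6A) in newborn mouse brain. Members were the protein-coding genes of the GENCODE M21 annotation on chromosomes 1 to 19 whose symbol is Zfp and such a number with nothing after it. There were 156 members among 20807 protein-coding genes, and they held 2977 of the 212798 m6A sites listed on these chromosomes in at least one of 2 libraries. Both libraries were made by GLORI, in which glyoxal and nitrite convert unmethylated adenosines to inosines, so that methylated adenosines remain readable as A at single-base resolution. Both tissues, a cerebellum and a cerebrum, came from a P0 female of the cross called F1r, with a C57BL/6J mother and a PWK/PhJ father and no treatment, and the input was poly(A)+ RNA of whole tissue. With 1 library per tissue there was no replicate error, and no difference between the tissues was tested. The deposited lists give positions alone, without methylation rates or reads, and the depth is unknown. A site missing from a list may be unmethylated, in an unexpressed gene or covered by too few reads, and these cannot be told apart. The file of the cerebrum sample carries in its name the study's short code for the cerebellum; the tissue was taken from the sample record.

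C2H2 zinc finger proteins form the largest family of transcription factors in mammals. Each finger holds a zinc ion between a pair of cysteines and a pair of histidines and can contact a short stretch of DNA, and many members carry fingers in long tandem arrays. In many of these genes the whole array is encoded by one long last exon. m6A is written on nascent mRNA by the METTL3 and METTL14 methyltransferase complex, mostly at the motif DRACH (D stands for any base but C, R for a purine and H for any base but G), and it lies preferentially in long internal exons, in last exons and near stop codons. YTH-domain proteins read the mark and can direct mRNA decay, nuclear export and translation. The members include factors with known roles in the brain and in imprinting. Zfp57 and Zfp445, for example, protect the DNA methylation of imprinted regions.

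The gene structure of the members was unlike that of most genes. For each gene 1 reference isoform was used, the complete coding isoform with the longest coding sequence (CDS). In the members a median of 84% of the CDS lay in the exon with the stop codon, called here the last coding exon, against 15.9% in 19555 other coding genes. The coding part of that exon had a median length of 1355.5 nt in the members and 176 nt in the other genes. The pattern of a C2H2 finger (Cys, 2 residues, Cys, 12 residues, His, 3 to 5 residues, His) occurred 1631 times in 150 of the 156 members, with a median of 11 fingers per member. Of these fingers, 85.3% began in the last coding exon, and 83% of the steps from a finger to the next were exactly 28 codons, or 84 nt. The 6 members without a finger by this pattern were Zfp36, Zfp330, Zfp365, Zfp395, Zfp414 and Zfp474. A signature of the KRAB domain, which recruits the KAP1 corepressor, was found in 51 members. The genes were unevenly spread, with 38 members on chromosome 7, 20 on chromosome 13 and 16 on chromosome 17.

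Sequences around 7 adenosines show where sites fall in the finger repeat. The first 4 are windows of 25 nt around listed sites at the repeat position that held the most sites, the first base of the codon before the second histidine. Each comes from the last coding exon of a different member, and all 4 sites were listed in both libraries. Capitals mark the 5-base DRACH motif with the adenosine at its centre, sequences read 5′ to 3′ on the gene's strand, and coordinates are GRCm38 (mm10).
Zfp26, exon 10 of 10, finger 5, chr9:20437910-20437934, minus strand: acacacttgaGAACTcatactggag
Zfp81, exon 4 of 4, finger 2, chr17:33335016-33335040, minus strand: aaccatgaacGAACTcatactggag
Zfp60, exon 5 of 5, finger 8, chr7:27749064-27749088, plus strand: gagcatcagaAAACTcacaccgatg
Zfp445, exon 7 of 7, finger 2, chr9:122853308-122853332, minus strand: ctgcaccaaaAAACCcatagtaaac
In each window the bases after the motif begin with ca, the start of the codon for the second histidine. The next window is from Zfp281, where the site lay directly before the codon of the first histidine and was listed in the cerebrum alone.
Zfp281, exon 2 of 2, finger 2, chr1:136626182-136626206, plus strand: cctactgcagAGACAcgagaaaatt
The final pair lies in the linker, the short stretch that joins a finger to the next one, at the last base of the codon that encodes lysine in the usual linker (arginine in the Zfp62 window). The Zfp62 adenosine was listed in both libraries, while the Zfp26 adenosine, shown for contrast and chosen after its values were seen, was listed in neither.
Zfp62, exon 5 of 5, finger 11, chr11:49216361-49216385, plus strand: tactggagaaAGACCttatgtatgt
Zfp26, exon 10 of 10, finger 9, chr9:20437557-20437581, minus strand: cactggaataAAACCatacaaatgt

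More of the members carried m6A than of coding genes at large. In the cerebellum 107 of the 156 members had at least 1 site, which is 68.6% (95% Wilson interval 60.9 to 75.4), and the background over all 20807 coding genes was 41.9%. In the cerebrum 139 members had a site, or 89.1% (83.2 to 93.1), against a background of 58.4%. Every member with a site in the cerebellum also had one in the cerebrum. The 17 members without any site included Zfp36, which encodes the mRNA-destabilising protein tristetraprolin, and Zfp42, a pluripotency marker also called Rex1. The lists hold no expression level, so the part of expression in these counts was not tested. Intervals here and below treat sites or adenosines as independent and cover counting error only.

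The number of sites per member spanned a wide range. In the cerebellum it ran from 0 to 85 with a median of 2, and in the cerebrum from 0 to 129 with a median of 10.5. Zfp292, a large transcription factor gene, held the most, with 85 sites in the cerebellum against 129 in the cerebrum. Zfp462, a chromatin regulator needed for neural development, followed with 72 and 123. Zfp451, which encodes a SUMO ligase, had 63 and 92. Zfp318 had 51 and 79, Zfp26 had 42 and 78, and Zfp148, a ubiquitous transcription factor, had 33 and 78. At the next ranks by sites over both libraries, Zfp81 had 29 and 57, Zfp60 had 27 and 57, Zfp445 had 46 and 51, and Zfp62 had 21 and 46. All 10 of these genes listed more sites in the cerebrum, although for Zfp445 the counts were close.

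**Figure D1:**
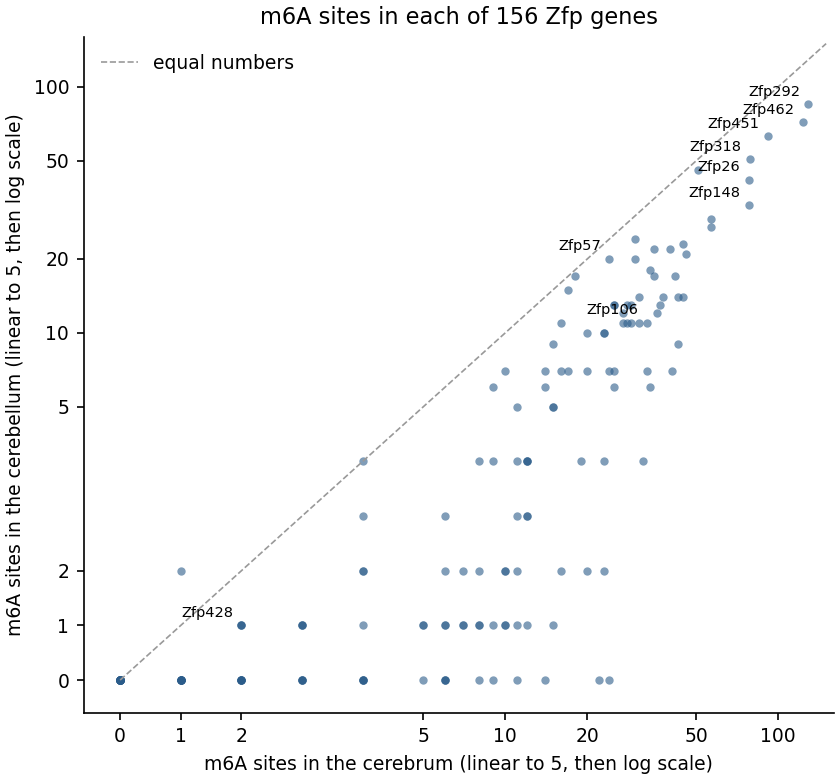
Each point is 1 of the 156 Zfp genes, plotted by its m6A sites in the cerebrum (horizontal) and the cerebellum (vertical), both axes linear up to 5 and logarithmic beyond; the dashed line marks equal numbers. All but 1 of the genes with a site lie on or below the line, the exception being Zfp217 with 2 sites in the cerebellum against 1 in the cerebrum.

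Members with known roles, in the brain, in imprinting or elsewhere, differed in the number and place of their listed sites. Zfp57 had 20 sites in the cerebellum against 24 in the cerebrum, with 17 shared by both. The coding part of its last coding exon held 14 of the cerebellum and 15 of the cerebrum sites. Zfp423, which is required for the formation of the cerebellar vermis, had 11 and 16 sites, with only 4 shared. Zfp106, an RNA-binding protein needed by motor neurons, had 11 and 33. Zfp281, a pluripotency factor, had 17 and 42 sites, of which 15 and 35 were in its last coding exon. Zfp207, a spindle assembly protein, had 13 and 25 sites, but 11 and 23 of these fell off the reference isoform. Zfp365, a protein of neurite outgrowth, had 2 and 4 sites, and Zfp335, a chromatin-associated factor of neural progenitors, had 1 and 2.

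The last coding exon held the most sites of the members. Its coding part contained 495 of 1145 member sites in the cerebellum, or 43.2% (40.4 to 46.1), and 1095 of 2719 in the cerebrum, or 40.3% (38.4 to 42.1). In the other coding genes the same share was 11.8% and 9.70%. The 3′ UTR held 34.0% (31.3 to 36.8) and 33.9% (32.1 to 35.7) of member sites, against 38.6% and 31.5% in other genes. Earlier coding exons held 10.8% and 10.3%, and the 5′ UTR 1.92% and 2.17%. Introns of the members held 2.53% and 5.33% of their sites, whereas in the other genes they held 21.5% and 29.4%.

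As the last coding exon is long in the members, sites were also counted per DRACH adenosine. Among the members with a site on the reference isoform (105 for the cerebellum and 136 for the cerebrum), 403 of 2843 DRACH adenosines in the coding part of the last coding exon were listed in the cerebellum, or 14.2% (12.9 to 15.5). In the cerebrum 838 of 3621 were listed, or 23.1% (21.8 to 24.5). For the 3′ UTR the rates were 7.10% (6.37 to 7.91) and 13% (12.1 to 14). Earlier coding exons had 5.19% (4.27 to 6.29) and 8.08% (7.02 to 9.28), and the 5′ UTR 2.40% and 5.42%. Within each library the intervals of the last coding exon, the 3′ UTR and the earlier coding exons did not overlap. The rate of the earlier coding exons leaned on Zfp462, without which it was 3.43% and 6.21%. Over all 358 numbered Zfp genes the earlier coding exons stood above the 3′ UTR in the cerebellum, at 7.26% against 6.42%.

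Other genes with a last coding exon of like length were set beside the members. All comparison groups were drawn from every coding gene outside the member rule, so Zfp genes with higher numbers were not kept out of them. Of 587 other genes with a last coding exon at least as long as the member median and no finger, 277 had a site on the isoform in the cerebellum and 339 in the cerebrum. They gave 17.6% (16.9 to 18.3) in that exon in the cerebellum, above the members, and 23.0% (22.4 to 23.7) in the cerebrum, within the interval of the members. Of 146 other genes with such an exon and at least 5 fingers, 97 and 111 had a site, and they had 9.34% (8.47 to 10.3) and 17.9% (16.8 to 19) there, below the members in both libraries. In the cerebellum this finger group had more in earlier coding exons, at 14.1% (12 to 16.5), than in the last coding exon, an order that the members did not show. Over all other coding genes the rates were 12.2% and 16.1%. In the 3′ UTR the members matched the other coding genes in the cerebellum, at 7.10% against 7.11%, and were higher in the cerebrum, at 13% against 9.31%. The cerebrum values of the 2 groups with a long last coding exon, 11.8% (11.3 to 12.4) without fingers and 12.4% (11.5 to 13.4) with them, had intervals that overlapped that of the members. Gene by gene, the last coding exon had the higher rate in 44 of 79 members in the cerebellum and in 63 of 104 in the cerebrum, counting members with at least 5 DRACH adenosines in each of the regions and at least 1 listed among them. That is 55.7% (44.7 to 66.1) and 60.6% (51.0 to 69.4), beside 49.0% and 52.5% of all other coding genes. In both libraries the interval of the members included the value of the other coding genes. The share was 65.2% and 69% in the other genes with a long last coding exon and no finger, and 67.9% and 61.0% in those with at least 5 fingers.

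**Figure D2:**
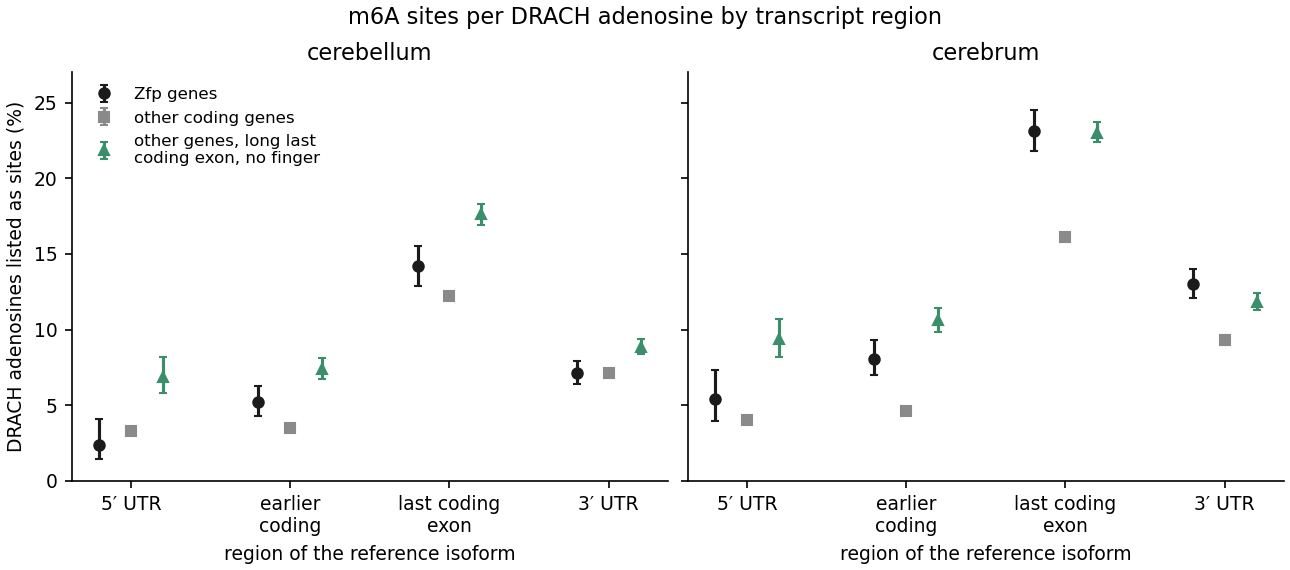
Percentage of DRACH adenosines listed as m6A sites in 4 regions of the reference isoform, for Zfp genes (circles), other coding genes (squares) and other genes with a long last coding exon and no finger (triangles), with 95% Wilson intervals as bars and 1 panel per library. The last coding exon is highest in all 3 groups drawn, at 14.2% and 23.1% in the Zfp genes.

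Along the last coding exon the rate was low at the start. In the first 100 nt 5.16% of the members' DRACH adenosines were listed in the cerebellum and 8.10% in the cerebrum. Other coding genes were also low there, at 5.84% and 7.76%. Between 200 and 400 nt the rates were 15.4% (12.1 to 19.4) and 24.6%. From 400 to 800 nt they were 10.5% (8.25 to 13.4) and 19.2% (16.5 to 22.2), against 15.8% and 22.1% in other coding genes. From 800 to 1600 nt they were 13.1% and 23.2%. Beyond 1600 nt, where other coding genes had 17.7% and 25.2%, they reached 25.1% and 33.5%. That last value leaned on Zfp292, whose last coding exon has 7083 coding nt: without it the rate beyond 1600 nt was 19.5% (14.7 to 25.4) and 26.9% (22 to 32.3). Past the stop codon the rate was highest in the first 200 nt of the 3′ UTR, at 18.6% (15.3 to 22.5) and 30.7%, and it fell to 3.28% and 5.76% beyond 1600 nt.

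**Figure D3:**
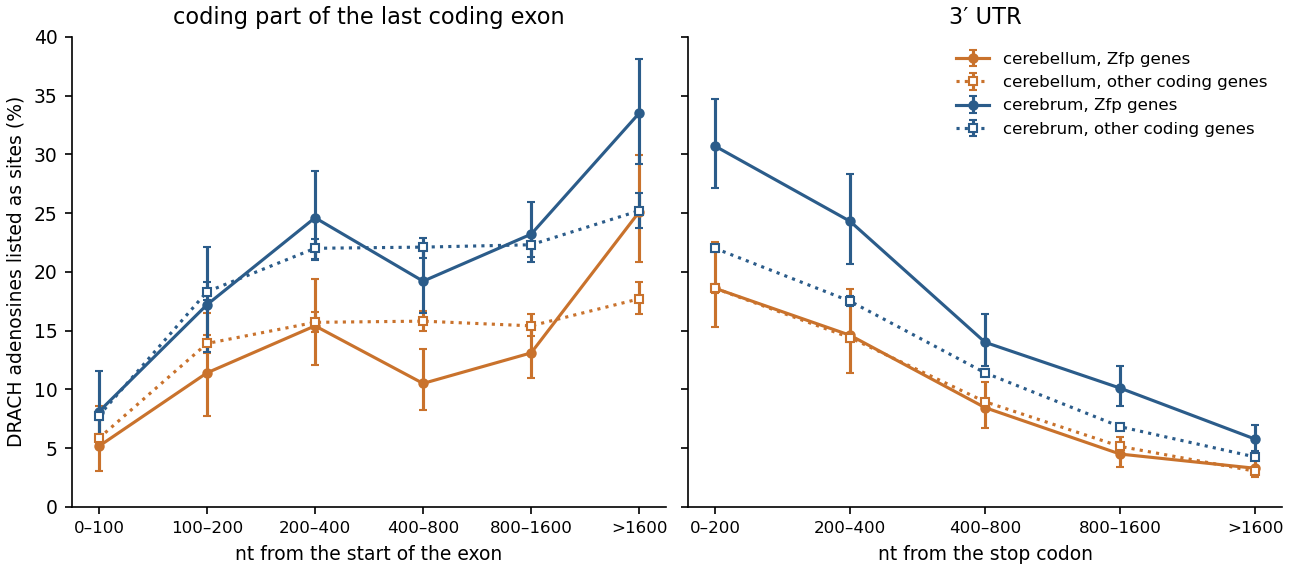
Percentage of DRACH adenosines listed as sites by distance in nt from the start of the last coding exon (left) and from the stop codon (right), for Zfp genes (solid lines, filled) and other coding genes (dotted, open), with 95% Wilson intervals. Rates rise over the first 200 nt of the exon and decline along the 3′ UTR, to 3.28% in the cerebellum and 5.76% in the cerebrum beyond 1600 nt in the Zfp genes.

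Some members have a long exon with coding sequence before the last coding exon, and several of these exons carried many sites. There were 16 such exons of at least 1000 nt in 15 members, and 12 of them held a site, while those of Zfp36, Zfp91 and Zfp366 and the exon 4 of Zfp217 held none. Exon 3 of 13 of Zfp462 is 5594 nt long and holds the start of 22 of its 33 fingers, the highest finger number of any member. It carried 41 sites in the cerebellum against 65 in the cerebrum, whereas the coding part of the last coding exon, 208 nt long, carried 2 in both. In Zfp423, exon 4 of 8 is 3215 nt long with 23 finger starts and held 7 and 13 sites. Exon 2 of 9 of Zfp407 (4720 nt) had 6 and 22 sites, and exon 7 of 9 of Zfp142 (2905 nt) had 4 and 20. Exon 5 of 22 of Zfp106, 2169 nt long and without a finger, had 10 and 13.

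The rate in earlier coding exons followed exon length. In exons under 200 nt, 1 of 818 DRACH adenosines of the members was listed in the cerebellum, or 0.122% (0.0216 to 0.689), and 5 of 1051 in the cerebrum, or 0.476% (0.203 to 1.11). In exons of 400 to 1000 nt the rates were 8.58% (5.63 to 12.9) and 14.5% (10.6 to 19.5). In exons of 1000 nt or more they were 12.7% (10.1 to 15.8) and 20.7% (17.7 to 24.1). Without Zfp462, whose exon 3 held 35 of the 68 listed adenosines in the cerebellum and 49 of the 126 in the cerebrum, these rates were 7.73% (5.56 to 10.7) and 15.4% (12.5 to 18.8). The other coding genes gave 0.201% and 0.489% in exons under 200 nt, and 15.7% and 22% in those of 1000 nt or more.

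**Figure D4:**
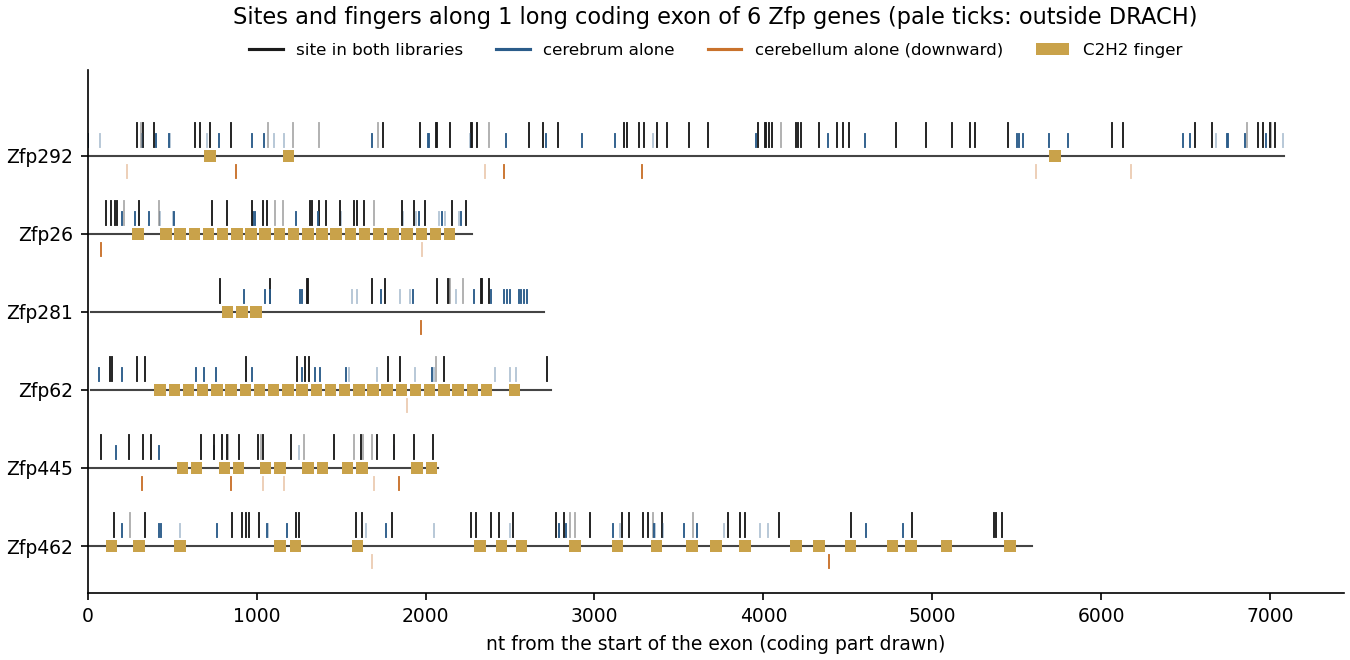
Positions of m6A sites (ticks) and C2H2 fingers (boxes) along 1 long coding exon of 6 Zfp genes, in nt from the start of the exon: the last coding exon of Zfp292, Zfp26, Zfp281, Zfp62 and Zfp445, and internal exon 3 of Zfp462. Tall black ticks are sites of both libraries, short blue ticks sites of the cerebrum alone, downward orange ticks sites of the cerebellum alone, and pale ticks lie outside DRACH; sites occur both within and outside the finger arrays.

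The rate differed widely between positions of the finger repeat. DRACH adenosines were placed by their offset in nt from the first base of the first cysteine codon. The most frequent one was at offset 74, the third base of codon 25, the lysine position of the usual linker. In the cerebrum set 499 candidate adenosines from 94 members lay there, 415 of them in AAACC, but only 44 were listed, or 8.82% (6.63 to 11.6). In the cerebellum 11 of 361 were listed, or 3.05% (1.71 to 5.37). Offset 57, the first base of codon 20 and the place of the first 4 printed windows, had far fewer candidates and more sites. There 93 of 201 were listed in the cerebrum, or 46.3% (39.5 to 53.2), in 44 members, and 47 of 171 in the cerebellum, or 27.5% (21.3 to 34.6), in 24 members. Offset 47, directly before the first histidine codon, lay between them, at 23.8% (18.4 to 30.3) in the cerebrum and 11.8% (7.62 to 17.9) in the cerebellum. Offsets 31 and 38 had the highest rates in the cerebrum among offsets with at least 30 candidates, 60% (45.5 to 73.0) and 60.6% (43.7 to 75.3).

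**Figure D5:**
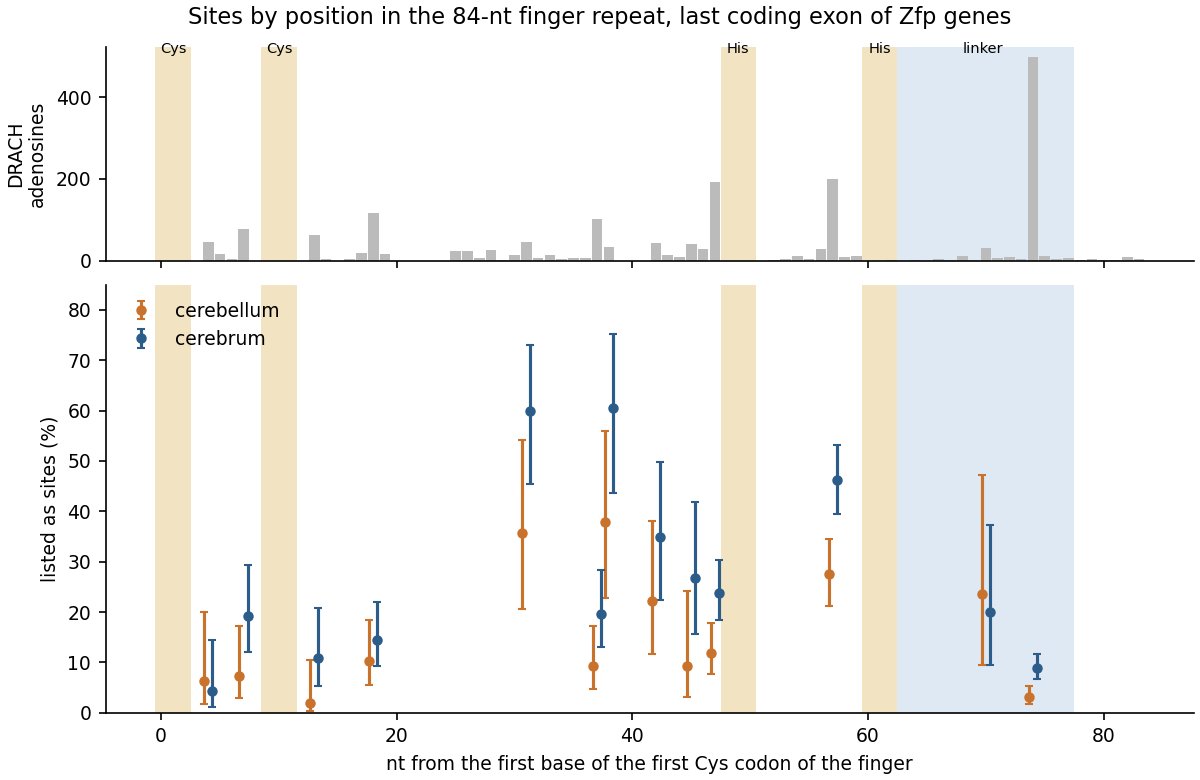
Position of DRACH adenosines in the 84-nt finger repeat, in nt from the first base of the first Cys codon, with the codons of the Cys and His residues and the linker shaded. The upper panel counts the candidate adenosines of the cerebrum set; the lower panel gives the percentage listed in each library with 95% Wilson intervals, at offsets with at least 30 candidates in the cerebrum set. Offset 74 in the linker has 499 candidates and 8.82% listed in the cerebrum, and offset 57 has 201 candidates and 46.3%.

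Counted by member, 62 members with a site in the cerebrum had DRACH adenosines at both offsets. The share listed was higher at offset 57 in 39 of them, higher at offset 74 in 4 and equal in 19, of which 18 had none listed at either. In the cerebellum it was higher at offset 57 in 23 of 51 members, higher at offset 74 in 1 and equal in 27, all with none listed. Zfp26 has 22 fingers and 8 DRACH adenosines at offset 57, of which the cerebellum list held 7 and the cerebrum list 8. Of its 10 DRACH adenosines at offset 74, only 2 and 3 were listed. In Zfp157 all 6 at offset 57 were listed in both libraries and neither of the 2 at offset 74 was listed in either. Zfp37 had 4 and 5 of 6 at offset 57, and 1 and 0 of 7 at offset 74. In Zfp180 0 of 8 at offset 57 were listed in the cerebellum and 3 in the cerebrum. Zfp263 went the other way in the cerebrum, with 3 of 5 at offset 57 and 3 of 4 at offset 74, and Zfp317 had 2 of 3 at both.

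The 5-mer at each position differed, and so did its rate elsewhere. AAACC at offset 74 was listed in 6.51% (4.51 to 9.30) of cases in the cerebrum, AAACC elsewhere in the members' last coding exons in 5.39% (3.34 to 8.57), and AAACC in the last coding exons of other genes in 2.5% (2.10 to 2.99). For the cerebellum the 3 AAACC values were 1.66%, 2.10% and 1.72%. The interval at the linker overlapped that of the same motif elsewhere in the members, and with windows found in 1 gene alone the cerebrum values were 10.7% (7.31 to 15.4) and 5.93% (3.68 to 9.41). GAACT at offset 57 was listed in 48 of 69 cases in the cerebrum, or 69.6% (57.9 to 79.2), beside 42.4% (34.1 to 51.2) elsewhere in the members' last coding exons and 32.9% (31.5 to 34.4) in other genes. In the cerebellum it was listed in 45.8% (33.7 to 58.3), beside 26% (18.4 to 35.4) and 25.7%. At offset 57 every GAACT is followed by CA from the histidine codon. Elsewhere in the members GAACT followed by CA was listed in 17 of 27 cases in the cerebrum, or 63% (44.2 to 78.5). In the cerebellum it was listed in 6 of 21, or 28.6% (13.8 to 50.0). Both intervals include the value at offset 57. In other coding genes it was listed in 168 of 422 cases in the cerebrum, or 39.8% (35.3 to 44.6), and in 26.9% (22.3 to 31.9) in the cerebellum. Adenosines in the first 200 nt of the exon were then left out, except where the whole CDS lies in it. All GAACT at offset 57 remained. GAACT elsewhere in the members then had 50% (40.1 to 59.9) in the cerebrum and 30.4% (21.3 to 41.2) in the cerebellum. Followed by CA it had 75% (53.1 to 88.8) and 40% (19.8 to 64.3), and in other coding genes 41.8% and 28.3%. Finger sequences are related to each other, so these adenosines are not independent cases.

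Sequence similarity between fingers touches these counts. A window of 31 nt around each DRACH adenosine, with A read as G, was found in the transcripts of 1 gene for 81.7% of the adenosines in the members' last coding exons and for 94.4% in their 3′ UTRs. At offset 74 it was 53.3% and at offset 57 it was 79.9%. In the last coding exon, adenosines with a window in 1 gene were listed in 15.3% (14 to 16.8) and 25.9% (24.4 to 27.5) of cases, and those with a window in several genes in 5.08% (3.15 to 8.09) and 6.83% (4.97 to 9.31). With windows in 1 gene alone, offset 74 had 4.13% and 13.2%, and offset 57 had 29.4% and 50.3%. How reads of shared windows were placed was not tested.

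Within the finger repeats as a whole the rate was close to that of the rest of the exon in the cerebrum. In the cerebrum 22.9% (21 to 24.8) of DRACH adenosines within repeats were listed and 23.4% (21.5 to 25.5) outside them. In the cerebellum the rates were 12.4% (10.8 to 14.2) and 16% (14.2 to 18). Without Zfp292 the rate outside the repeats was 20.9% (19 to 23) in the cerebrum, below that within them, and 13.8% (12 to 15.8) in the cerebellum, while the rates within were 22.9% and 12.4% as before. Without offset 74 the repeats had 27.9% (25.6 to 30.3) and 15.5% (13.5 to 17.8). Members with 0 to 4 fingers had 34.8% (30.9 to 38.9) in the cerebrum, and those with 5 to 9, 10 to 14 and at least 15 fingers had 22.5%, 20.6% and 20.9%, whose intervals overlapped. In the cerebellum these 4 rates were 24.5%, 11.9%, 13.1% and 10.7%. Zfp292, with 3 fingers, weighed on the first class, which had 29.4% and 20.5% without it. Members with the KRAB signature had 22.8% (20.7 to 25.1) in the cerebrum and those without it 23.4% (21.6 to 25.2).

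Because the repeat is 84 nt long, sites in neighbouring fingers can lie exactly 84 nt apart. DRACH sites within the same last coding exon formed 30 such pairs in the cerebrum and 13 in the cerebellum. The mean over the neighbouring distances from 72 to 96 nt, without 84 nt itself, was 5.88 and 1.92 pairs. Peaks also stood at 168 nt, with 44 and 11 pairs, and at 252 nt, with 31 and 13. All DRACH adenosines of these exons formed 637 pairs at 84 nt against 66.9 at neighbouring distances, so the spacing was present in the sequence itself. There it was 9.53 times the neighbouring level, against 5.11 times for cerebrum sites and 6.78 times for cerebellum sites. These ratios have no interval, and that of the cerebellum rests on 13 pairs.

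Of the member sites, 76.6% (74.1 to 79.0) lay in DRACH motifs in the cerebellum, against 63.6% in other genes. In the cerebrum the shares were 66.9% (65.1 to 68.6) and 48.2%. On the reference isoform the difference was smaller, at 79.2% and 72.3% against 75.3% and 63.8%. In the coding part of the last coding exon the shares were close, at 81.4% (77.8 to 84.6) and 76.5% (73.9 to 78.9) against 80.6% and 74.6%. In the 3′ UTR they were 77.9% (73.5 to 81.7) and 70.1% (67.1 to 73.0) against 76.9% and 66.6%. Earlier coding exons had a wider gap, at 78.2% and 64.6% against 68.8% and 53.4%. Among sites on the reference isoform, the leading 5-mers of the members were AAACT, with 10.9% in the cerebellum and 8.70% in the cerebrum, and GAACT, with 10.5% and 9.13%. Counted likewise, GGACT came first in other genes, with 9.87% and 8.66%. Per adenosine in the last coding exon, GAACT of the members was listed in 52.1% (45.1 to 59.0) of cases in the cerebrum and GGACT in 34.1% (26.6 to 42.5), while in other genes the values were 32.9% and 30.2%.

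The cerebellum list of the members was for the most part contained in the cerebrum list. Of 1145 cerebellum sites, 887 were also listed in the cerebrum, or 77.5% (75 to 79.8), against 61.9% in other genes. As a share of the cerebrum sites this was 32.6% (30.9 to 34.4), against 26.3%. Within the classes that held most sites the direction of this second share was turned, at 42.1% (39.9 to 44.4) against 46.0% for DRACH sites, 38.3% against 42.1% for the last coding exon and 32% against 37.8% for the 3′ UTR. Among DRACH sites 87.3% (85 to 89.4) of those of the cerebellum were shared, against 81.9% in other genes. Among sites outside DRACH this was 45.1% (39.3 to 51.1) against 26.9%. In the coding part of the last coding exon 84.6% (81.2 to 87.6) of cerebellum sites were shared, against 81.4% in other genes. In the 3′ UTR this was 75.8% (71.3 to 79.8) against 72.5%, and in introns 13.8% (5.50 to 30.6) against 24.5%. In each of these regions the interval of the members included the value of the other genes.

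The members had 0.421 sites in the cerebellum for each site in the cerebrum, a ratio close to the 0.426 of other coding genes. For DRACH sites the ratio was 0.482 in the members and 0.562 in the others, so within DRACH the members leaned further to the cerebrum. Only 1 of the 132 members with a DRACH site had more DRACH sites in the cerebellum than in the cerebrum, which is 0.758% (0.134 to 4.17), against a background of 7.25% over all coding genes with a DRACH site. This was Zfp428, with 1 DRACH site in the cerebellum and 0 in the cerebrum. The numbers were equal in 6 members. The largest gaps among the named genes were in Zfp292, with 63 DRACH sites in the cerebellum against 91 in the cerebrum, and Zfp462, with 57 and 79. As the cerebrum list is longer over all genes together, expression, coverage and methylation of the members cannot be told apart in this difference.

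For 2 of the genes named above, Zfp451 and Zfp207, the choice of isoform moved the sites between regions. The reference isoform of Zfp451 left 77 of its 92 cerebrum sites and 59 of its 63 cerebellum sites off its exons. Placed on the longest isoform that covers each site, 31 of the cerebrum sites lay in the coding part of a last coding exon and 46 in a 3′ UTR. In the cerebellum these were 24 and 36. Of the 25 cerebrum sites of Zfp207, 10 lay in a 3′ UTR on that basis and 13 lay outside the exons of every annotated isoform. In some other members sites moved from the last coding exon to a 3′ UTR. The last coding exon of Zfp90 held 10 cerebellum and 19 cerebrum sites on the reference isoform. Placed likewise, it held 0 and 0, while the 3′ UTR held 11 and 23 instead of 1 and 4. For Zfp101 in the cerebrum the last coding exon went from 9 to 0 and the 3′ UTR from 10 to 20. A 3′ UTR pattern on the reference isoform itself was seen in Zfp41, whose CDS of 597 nt lies in 1 exon: 39 of its 40 cerebrum sites and 21 of its 22 cerebellum sites were in the 3′ UTR, which has 174 DRACH adenosines against 12 in the CDS.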

How the data were processed

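GLORI site lists of 1 cerebellum and 1 cerebrum library were used as deposited. Per the paper's methods, the authors mapped the reads to mm10 and to a copy of it with PWK bases, called sites with GLORI-tools and a GENCODE annotation, and kept sites above a minimum methylation rate and read count in the union of both sets. The unit of the deposited files is a genomic position; they hold 0 methylation rates. The M21 models used here are not the release the authors named. At 99.7% of the 2977 member sites the GRCm38 base on the site's strand was A.

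Sites were assigned to every member whose interval holds them on the same strand, and to regions of the reference isoform. The start codon exon counts with the earlier coding exons unless it also holds the stop codon. Rates divide listed DRACH adenosines by all DRACH adenosines of isoforms with at least 1 site in that library. Strain variants were not considered. Shares have 95% Wilson intervals. The KRAB signature was a short sequence pattern, so it can miss diverged domains. Named genes were the 10 members with the most sites and the 5 with the most DRACH sites in the last coding exon. Also named were those with more DRACH sites in the cerebellum, the member with the most fingers and 12 with known roles. Zfp41, Zfp90, Zfp101, Zfp217 and the members without a site were added after their values were seen. So were those with a long internal exon and those given at offsets 57 and 74. The members, gene lists and comparisons were chosen with earlier results of these data known. Counting was tested on simulated data for the 156 members: 5 of 5 known rates lay within their intervals. The simulated sites were placed with the same regions and finger offsets that were then counted, so an error in those could not show. All members entered that count, whereas the reported rates use members with a site on the isoform in the library. Python 3.11.15, pysam 0.24.0 and samtools 1.23.1 were used. Alternatives tried were another isoform, other site sets, other denominators, windows found in 1 gene, a wider finger pattern and all 358 numbered Zfp genes.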

Additional observations from a re-analysis of the deposited data

How the results depend on the processing

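Recomputed under the other settings, 95 values were compared with those reported: 59 stayed within the interval of the reported value, or within 1.5 times a count, and 36 moved. With the reported setting counted as 1 of them, the order last coding exon, 3′ UTR, earlier coding exons in rate held in 7 of 7 settings for the cerebrum. For the cerebellum it held in 6 of 7. The exception was the set of all numbered Zfp genes, where earlier coding exons had 7.26% in the cerebellum and the 3′ UTR 6.42%. In the cerebellum, members with a site in both libraries were the same members as in the reported setting, so the order could not change there. Below, values are given as cerebellum and cerebrum. With all numbered Zfp genes, 237 and 289 genes had a site, the last coding exon held 39.3% and 37.1% of sites, its rate was 11.6% and 20.1%, and rates were 11.5% in the 3′ UTR of the cerebrum and 10.9% in its earlier coding exons. With all members in the denominator, the last coding exon had 9.52% and 19.8%, the 3′ UTR 5.68% and 12.1%, earlier coding exons 4.13% in the cerebellum, and offset 57 had 20.7% there. Over members with a site in both libraries, the cerebrum rates were 27.5%, 14.4% and 9.52% in the last coding exon, the 3′ UTR and earlier coding exons. With windows found in 1 gene, the cerebrum had 25.9% in the last coding exon and 13.2% at offset 74. Without the member with the most sites in a region, the last coding exon held 40.3% of cerebellum sites (without Zfp292) and earlier coding exons had 3.43% and 6.21% (without Zfp462). On the longest isoform the 3′ UTR held 38.3% and 37.7% of sites, and on the longest isoform covering each site 39.0% and 38.4%. Over sites in both libraries the last coding exon held 47.2% and 47.2%, and DRACH motifs made up 86.4% and 86.4%. Over DRACH sites the last coding exon held 46.1% in the cerebrum, and 87.3% of cerebellum sites were shared, against 45.1% outside DRACH. Over exonic sites the DRACH share was 69.8% in the cerebrum. With all sites, 48 pairs lay 84 nt apart in the cerebrum. Both settings added for the finger offsets after seeing the data (leaving out the member with the most sites at an offset, and adenosines at least 200 nt into the exon) left 8 of 8 values within the interval; other rates without Zfp292 or Zfp462, also added then, stand beside those rates. The causes were not tested. Depth is unknown, so no limit on undetected sites can be given.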
